A study of Mus musculus with 4 samples.

Results

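Receptors for the constant (Fc) part of IgG were examined in sorted mouse bone marrow cells through 6 genes: the activating receptors Fcgr1, Fcgr3 and Fcgr4, the inhibitory receptor Fcgr2b, the signalling chain Fcer1g and the receptor-like gene Fcrl5. They were taken by name, with every probe set that carried 1 gene symbol. Each gene had 1 such probe set, so the group was 6 genes among 22180 and 6 probe sets among 23521 with 1 symbol. The genes were chosen by their DKO minus WT differences (double knockout minus wild type), Fcgr4, Fcrl5 and Fcgr1 having been seen as high, and filled up with the rest of the receptor group. All values for them are therefore a description.

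RNA was hybridised to 4 Affymetrix Mogene ST 2.0 arrays, 1 for each genotype: Fancd2 knockout (Fancd2KO), Foxo3a knockout (Foxo3aKO), the double knockout of Fancd2 and Foxo3a (DKO) and wild type (WT). All mice were 2 months old, and all samples were marrow mononuclear cells that the labels call SLAM cells, sorted for c-Kit and Sca-1 and against lineage antigens and CD34, a phenotype used for haematopoietic stem cells. The sources used here did not give the knockout alleles, the strain, the sex or the number of mice or cells behind each array. With 1 array a genotype there are no replicates, so no difference carries an error, a test or a p-value.

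Fc gamma receptors let blood cells sense IgG bound to a target. Activating receptors pair with the FcR gamma chain, the product of Fcer1g, whose cytoplasmic tyrosine motif (ITAM) recruits the kinase Syk, whereas FcγRIIB, the product of Fcgr2b, carries an inhibitory motif (ITIM) that recruits the phosphatase SHIP1, the product of Inpp5d. In mouse marrow the pair of surface antigens FcγRIII and FcγRIIB, stained together, is best known as a marker that separates classes of committed myeloid progenitors. FcγRIV, the product of Fcgr4, is known from non-classical monocytes, macrophages and neutrophils, and FcγRI, the product of Fcgr1, from monocytes and macrophages. Fcrl5 is known in mice from marginal zone and B-1 B cells.

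Values are log2 signals as the authors deposited them, so a difference of 1 is a 2-fold change. Genes were compared when their highest signal on the 4 arrays was at or above 5.51 log2, the median of all gene values, called the floor here. This left 12041 genes. The 4 arrays had medians of 5.27 to 5.34 log2 over 41345 probe sets, and pairs of arrays correlated at 0.965 to 0.969. For 728 genes with 2 probe sets, both probe sets disagreed about the same difference with an SD, for the differences from WT, of 0.49 log2 in Fancd2KO, 0.47 in Foxo3aKO and 0.52 in DKO. Both probe sets read the same RNA, so this disagreement holds no spread between mice or sorts, which is unknown here. Fancd2 was at 6.08 log2 in Fancd2KO, 6.67 in Foxo3aKO, 5.84 in DKO and 6.56 in WT, and Foxo3 at 6.72, 6.64, 6.51 and 6.62 on the same arrays. The exons under these probe sets were not known, so neither signal checks the labels. Transcripts of mature neutrophils were bright on every array despite the lineage-negative gate: S100a8 was at 12.88 log2 in Fancd2KO, 13.07 in Foxo3aKO, 12.91 in DKO and 13.02 in WT. Kit was at 10.41, 10.57, 10.43 and 10.67, and Cd34, whose protein the gate excludes, at 10.28, 9.67, 10.36 and 10.79.

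Fc receptor transcripts were highest in the DKO array for 5 of the 6 genes. Against WT, 4 of 6 were at least 2-fold higher in DKO: Fcgr4, Fcrl5, Fcgr1 and Fcgr2b. Over all genes compared, 1.37% were at least 2-fold higher and 1.72% lower in this comparison, shares given for scale because the genes were chosen with it known. Neither single knockout had a member at least 2-fold higher or lower than WT. The background shares there were 1.68% higher and 1.35% lower for Fancd2KO and 1.81% higher and 1.30% lower for Foxo3aKO. The median of the 6 differences was 1.59 log2 for DKO minus WT, against -0.03 over all 12041 genes. It was -0.20 for Fancd2KO minus WT and 0.48 for Foxo3aKO minus WT, against -0.01 and -0.04 over all genes. In these bulk samples a change in the number of cells of a type and a change in RNA per cell cannot be told apart.

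**Figure D1:**
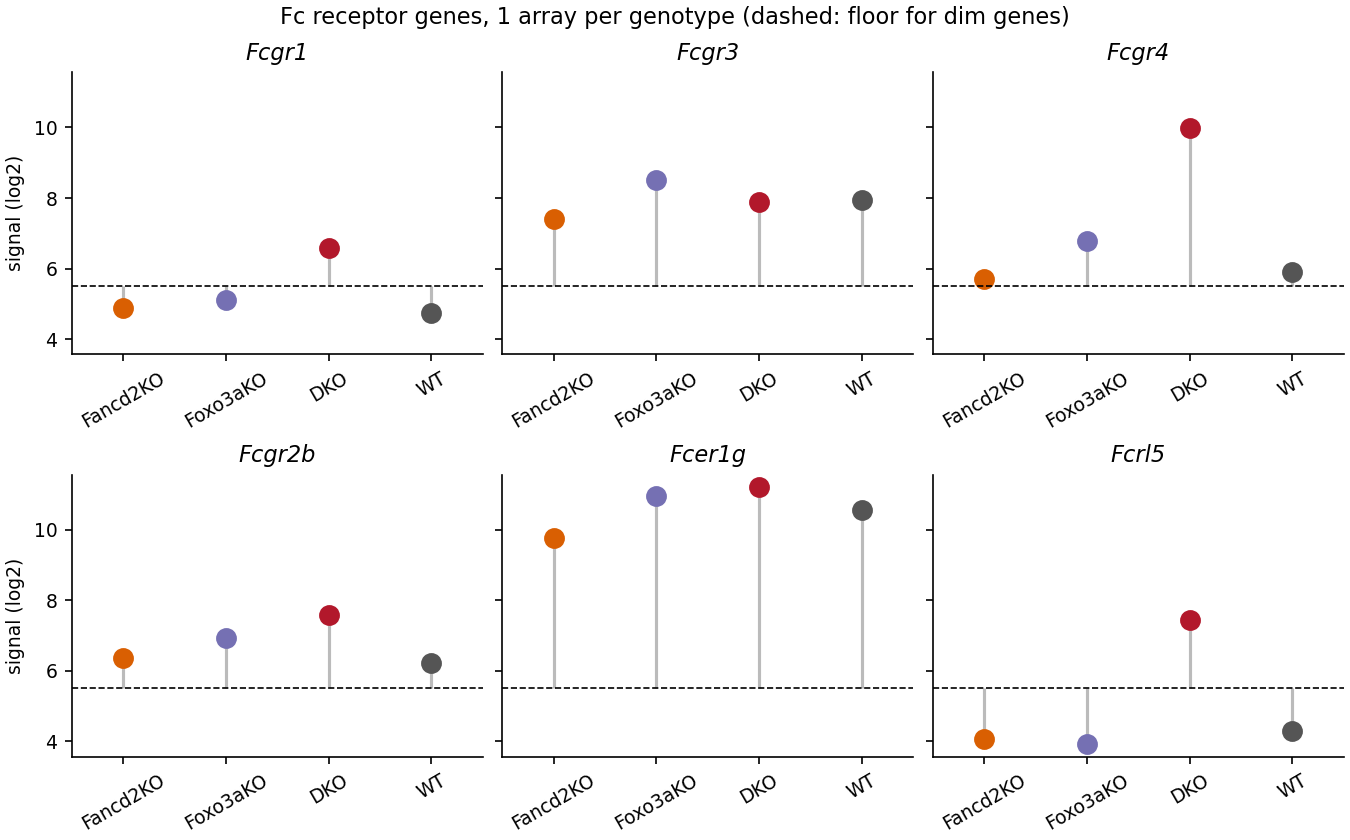
Signal (log2, vertical axis) of the 6 Fc receptor genes on the single array of each genotype (horizontal axis), with 1 point per array and the floor of 5.51 log2 as a dashed line. Fcgr4 reached 9.97 log2 in DKO, and Fcrl5 and Fcgr1 were above the floor in DKO and below it in the other genotypes.

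Among the activating receptors, Fcgr4 (probe set 17219199) had the widest spread. Its signal was 5.71 log2 in Fancd2KO, 6.78 in Foxo3aKO, 9.97 in DKO and 5.90 in WT. DKO stood apart from the other 3 arrays, Foxo3aKO lay between it and the others, and Fancd2KO was next to WT. The difference of 4.08 log2 for DKO minus WT, 16.9-fold, was the largest of all 12041 genes, and that for Foxo3aKO minus WT was 0.88. The Fancd2KO difference of -0.19 was smaller than the disagreement of probe sets.

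Fcgr1 (probe set 17408024), the high-affinity receptor, was dim. It had 4.87 log2 in Fancd2KO, 5.12 in Foxo3aKO, 6.58 in DKO and 4.75 in WT. Only the DKO signal was above the floor, so Fcgr1 entered the comparison through DKO alone and had to differ there. The deposited values gave a DKO minus WT difference of 1.82 log2. With signals below the floor raised to it, the difference was 1.07, still above 2-fold.

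Fcgr3 (probe set 17229620), the low-affinity receptor FcγRIII that is also known from NK cells, went another way. Signals were 7.41 log2 in Fancd2KO, 8.51 in Foxo3aKO, 7.90 in DKO and 7.95 in WT. Foxo3aKO was the highest array and Fancd2KO the lowest, while DKO lay next to WT. The differences from WT were -0.54 for Fancd2KO, 0.56 for Foxo3aKO and -0.05 for DKO, none of them 2-fold. Thus 2 activating receptors whose genes are next to each other, Fcgr4 and Fcgr3, differed from WT in DKO by 4.08 and -0.05.

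The inhibitory receptor gene Fcgr2b (probe set 17229607) had 6.38 log2 in Fancd2KO, 6.94 in Foxo3aKO, 7.58 in DKO and 6.22 in WT. All 3 knockout arrays were above WT, with DKO highest. The differences were 0.16 for Fancd2KO, 0.72 for Foxo3aKO and 1.36 for DKO, the last a 2.56-fold change. The difference of Fcgr4 exceeded that of Fcgr2b by 2.72 log2 in DKO minus WT and by 0.16 in Foxo3aKO minus WT. In Fancd2KO minus WT the same quantity was -0.34. Fcgr2b and Fcgr3 code for very similar extracellular parts, so probes can be shared between their transcripts and both values are uncertain for that reason.

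Fcer1g (probe set 17229658), the chain that the activating receptors need at the surface, was bright everywhere. It stood at 9.76 log2 in Fancd2KO, 10.96 in Foxo3aKO, 11.20 in DKO and 10.57 in WT. Fancd2KO was the lowest array and DKO the highest, with WT between. The difference of -0.81 in Fancd2KO was the largest of any member in that comparison, and 2.70% of all genes were lower. Differences of 0.39 for Foxo3aKO and 0.63 for DKO were below 2-fold.

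Fcrl5 (probe set 17398755), a receptor-like protein with both inhibitory and ITAM-like motifs, had 4.08 log2 in Fancd2KO, 3.94 in Foxo3aKO, 7.45 in DKO and 4.30 in WT. It was above the floor in DKO only, and the other 3 arrays lay within 0.36 log2 of WT. Like Fcgr1, it entered the comparison through DKO alone. The DKO minus WT difference was 3.15 log2 as deposited, the 9th highest of 12041 genes, and 1.94 once signals below the floor were raised to it.

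**Figure D2:**
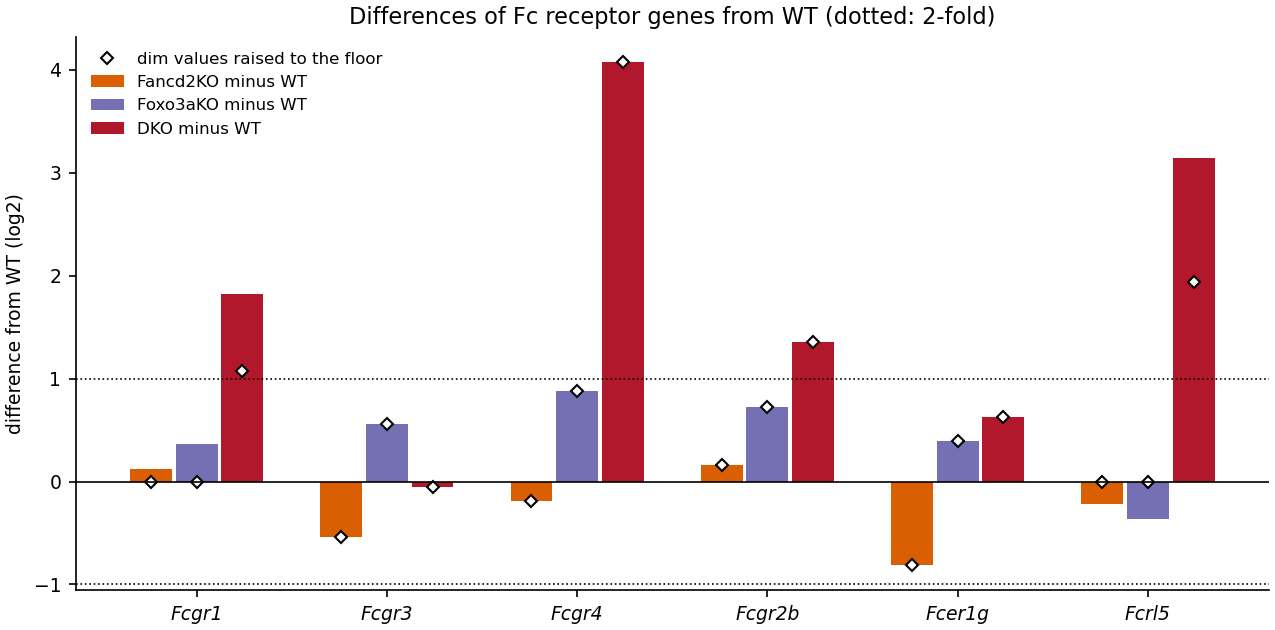
Log2 differences from WT (vertical axis) of the 6 genes in Fancd2KO, Foxo3aKO and DKO (bars), with white diamonds for the same differences after raising dim signals to the floor and dotted lines at 2-fold. Only DKO bars cross the upper line, for Fcgr1, Fcgr4, Fcgr2b and Fcrl5. The diamonds sit lower for Fcgr1 at 1.07 and Fcrl5 at 1.94.

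The promoters are shown because 4 of these genes were high in the same array, with Fcgr3 as the neighbour of Fcgr4 that did not reach 2-fold. The lines give the 250 bases before each gene's start, 5′ to 3′ along the gene, from RefSeq on build GRCm38.p6. All 6 genes matched by symbol, and the first of 2 listed starts was used for Fcgr3. Capitals mark the PU box GAGGAA, bound by the myeloid and B cell factor PU.1, and the ETS sequence GGAAGT, either of them on both strands, so they read TTCCTC and ACTTCC where they lie on the opposite strand. The motifs were chosen after these sequences had been seen.
Fcgr4, chr1:171018676-171018925, plus strand: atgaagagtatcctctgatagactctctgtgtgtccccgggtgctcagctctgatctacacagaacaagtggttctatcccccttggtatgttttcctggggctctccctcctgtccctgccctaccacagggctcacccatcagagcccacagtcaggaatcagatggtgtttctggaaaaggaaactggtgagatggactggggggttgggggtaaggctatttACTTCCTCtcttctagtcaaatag
Fcgr1, chr3:96293970-96294219, minus strand: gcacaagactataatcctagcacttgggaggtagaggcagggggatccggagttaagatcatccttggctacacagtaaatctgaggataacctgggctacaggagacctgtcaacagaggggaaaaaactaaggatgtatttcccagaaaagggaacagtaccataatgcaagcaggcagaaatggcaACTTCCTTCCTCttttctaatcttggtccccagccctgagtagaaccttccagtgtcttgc
Fcgr2b, chr1:170976072-170976321, minus strand: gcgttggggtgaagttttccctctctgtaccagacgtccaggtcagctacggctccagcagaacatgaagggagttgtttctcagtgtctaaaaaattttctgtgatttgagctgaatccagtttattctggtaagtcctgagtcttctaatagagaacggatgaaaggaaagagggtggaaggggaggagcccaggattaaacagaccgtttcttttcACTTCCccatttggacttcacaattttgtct
Fcrl5, chr3:87435532-87435781, plus strand: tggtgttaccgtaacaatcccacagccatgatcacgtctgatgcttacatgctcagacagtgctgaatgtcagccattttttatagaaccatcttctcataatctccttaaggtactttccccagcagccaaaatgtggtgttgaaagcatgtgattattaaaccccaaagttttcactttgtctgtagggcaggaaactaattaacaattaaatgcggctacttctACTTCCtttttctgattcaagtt
Fcgr3, chr1:171059404-171059653, minus strand: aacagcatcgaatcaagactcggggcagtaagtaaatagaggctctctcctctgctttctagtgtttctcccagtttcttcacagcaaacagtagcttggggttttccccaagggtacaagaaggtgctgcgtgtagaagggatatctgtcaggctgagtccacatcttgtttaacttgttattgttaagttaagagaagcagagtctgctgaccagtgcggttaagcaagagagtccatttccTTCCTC

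In Fcgr4 the PU box and the ETS sequence overlapped in the run ACTTCCTC, whose ETS part began 24 bases before the start. Such a run, on either strand, was in 2.44% of the 27025 gene promoters of this length. Fcgr1 held both sequences side by side from 61 to 50 bases before its start. Fcgr2b had an ETS sequence beginning 31 bases before the start, and Fcrl5 had one beginning 23 bases before it. Fcgr3 had a PU box that ended at the base before the start, and Fcer1g had neither sequence. In all, the ETS sequence was in 4 of 6 members and 20.0% of promoters, and the PU box in 3 of 6 and 23.1%. The forkhead sequence GTAAACA, bound by FOXO proteins, was in 0 of 6 and 3.09% of promoters. The Runx sequence TGTGGT occurred in Fcgr4 and Fcrl5 and in 14.2% of promoters. All were searched on both strands. A match describes the letters in this window and shows no binding.

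DKO was next set against each single knockout and against the additive expectation, the sum of both single knockout differences added to WT on the log2 scale. These comparisons share the DKO array with the one above and are no independent evidence. Against Fancd2KO, 5 of 6 members were at least 2-fold apart in DKO, all of them higher, beside 3.01% of all genes apart in either direction. Fcgr4 differed by 4.26, Fcrl5 by 3.36, Fcgr1 by 1.71, Fcer1g by 1.44 and Fcgr2b by 1.20 log2, and Fcgr3 by 0.49. Fcrl5 and Fcgr1 were above the floor in DKO only, so they had to be higher there. With dim signals raised to the floor they differed by 1.94 and 1.07. Fcer1g passed 2-fold here and not against WT, its Fancd2KO signal being the lowest of the 4.

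Against Foxo3aKO, 3 of 6 members were at least 2-fold higher in DKO, beside 1.18% of all genes. They were Fcrl5 at 3.51, Fcgr4 at 3.19 and Fcgr1 at 1.46 log2. Fcrl5 and Fcgr1 again had to be higher, being under the floor in Foxo3aKO. With dim signals raised to the floor they differed by 1.94 and 1.07. The other differences were 0.64 for Fcgr2b, 0.24 for Fcer1g and -0.61 for Fcgr3. Fcgr3 was thus the member with a lower signal in DKO than in Foxo3aKO.

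DKO exceeded the additive expectation by at least 2-fold for 4 of 6 members, beside 3.99% of all genes. The excess was 3.72 log2 for Fcrl5, 3.38 for Fcgr4, 1.34 for Fcgr1 and 1.05 for Fcer1g. It was 0.48 for Fcgr2b and -0.08 for Fcgr3. The sum of 4 arrays carries more error, with a probe set disagreement of 0.72 log2 (SD), and the values for Fcgr1 and Fcer1g lay under the 1.37 log2 that 95% of such disagreements did not exceed. The excess of Fcrl5 was 1.94 with dim signals raised to the floor.

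**Figure D3:**
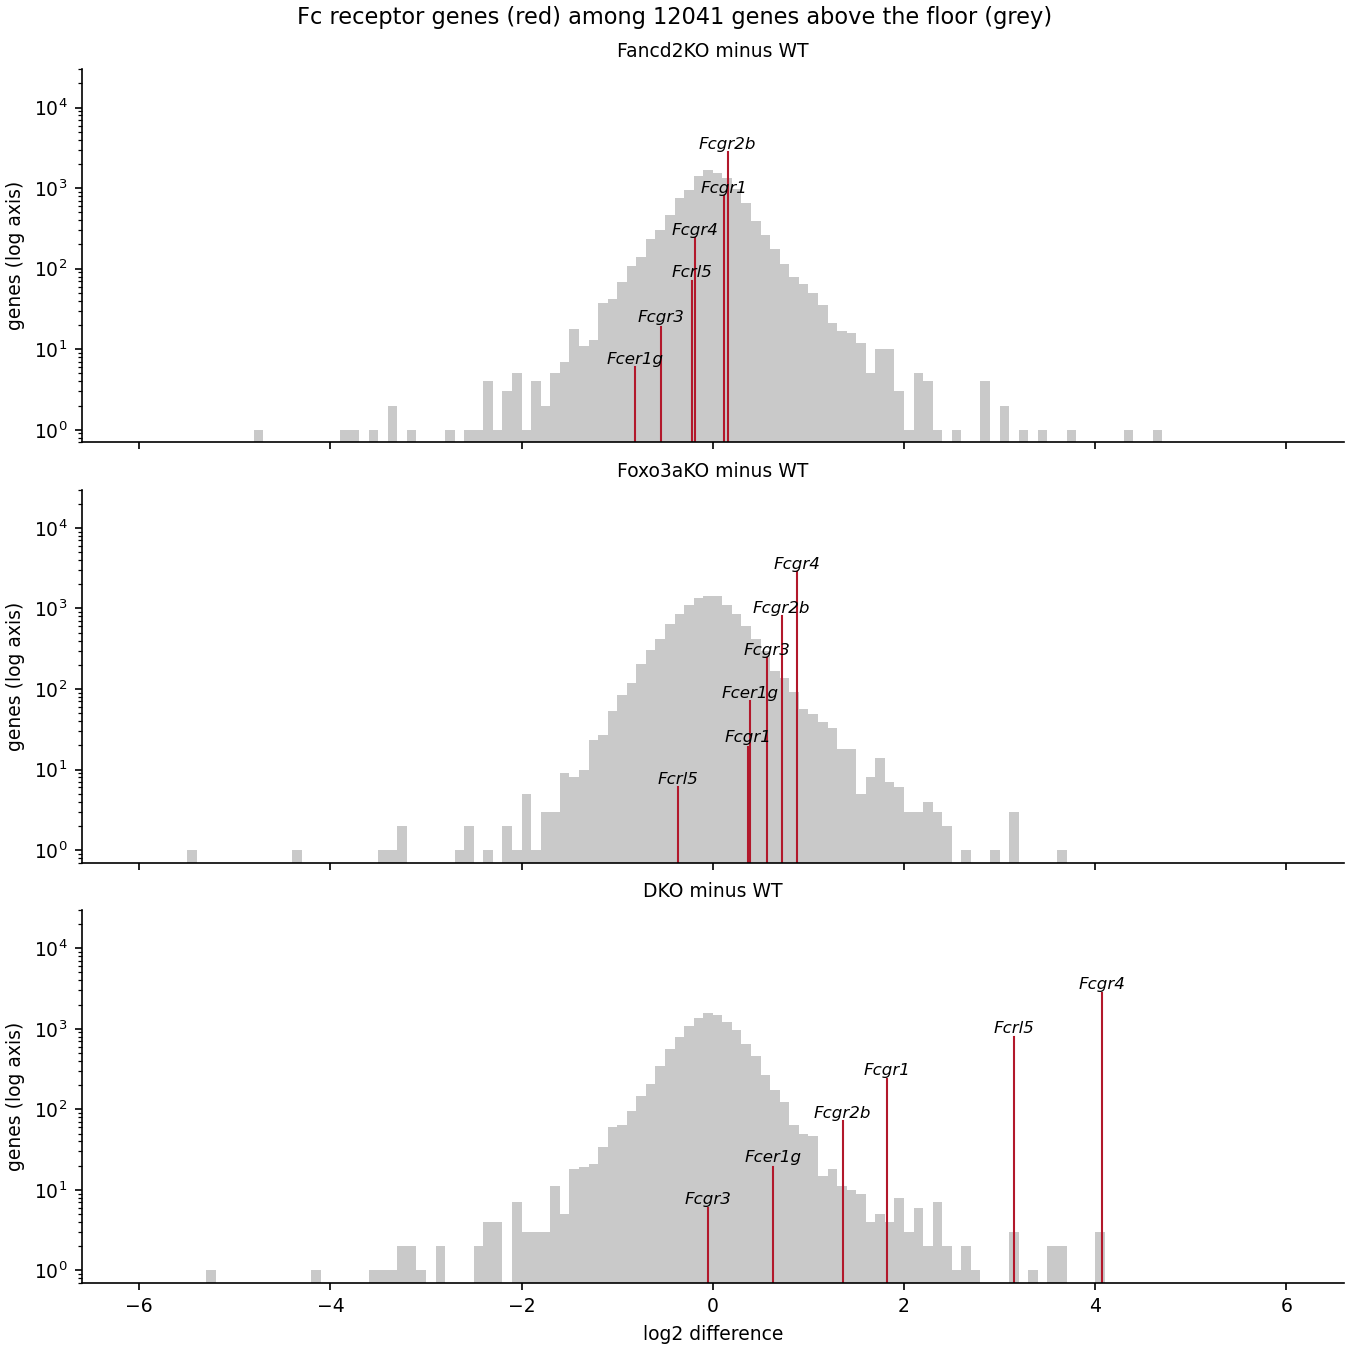
Histograms of the log2 difference from WT (horizontal axis) over the 12041 genes compared, with the number of genes on a log axis, for Fancd2KO, Foxo3aKO and DKO from top to bottom. Red lines, whose heights only separate the names, mark the 6 Fc receptor genes, which lie between -0.81 and 0.16 in Fancd2KO, between -0.36 and 0.88 in Foxo3aKO and between -0.05 and 4.08 in DKO.

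Genes beside the members on the chromosome were examined next. Fcgr2b, Fcgr4 and Fcgr3 follow each other on chromosome 1 with no other protein-coding gene between them in the RefSeq table, Fcer1g is farther along the same chromosome, and Fcgr1 and Fcrl5 are apart on chromosome 3. Of 24 measured protein-coding neighbours, the 3 nearest on each side of every member, 0 were at least 2-fold higher than WT in any knockout and 1 was lower in DKO. The shares over all genes, 1.37% higher and 1.72% lower in DKO, are as small, so the counts do not set the neighbours apart. Their median was 0.04 log2 for DKO minus WT, from -1.54 to 0.94. Fcrla, an intracellular Fc receptor-like gene of B cells and the nearest measured gene before Fcgr2b, was the lowest, by more than the 1.36 of Fcgr2b in size, or -0.95 with its DKO signal raised to the floor. It had 5.79 log2 in Fancd2KO, 6.19 in Foxo3aKO, 4.92 in DKO and 6.46 in WT, so the DKO array that was highest for Fcgr2b was lowest for Fcrla. Cfap126, the gene after Fcgr3, differed by 0.70 in DKO, and Sdhc by 0.03. Beside Fcrl5, the receptor-like genes Fcrl1 and Fcrls differed by 0.85 and 0.94 in DKO, with Fcrls under the floor on every array. One neighbour of Fcgr1, Txnip, was at least 2-fold lower in Fancd2KO, at -1.02.

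**Figure D4:**
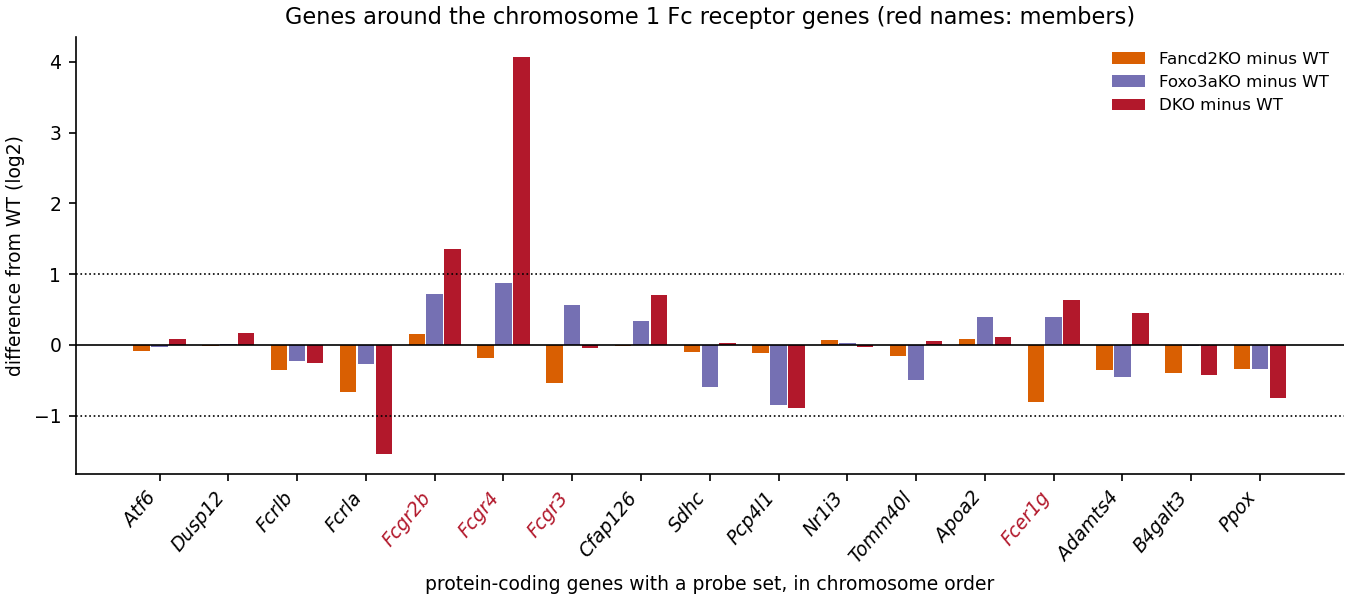
Log2 differences from WT (vertical axis) in Fancd2KO, Foxo3aKO and DKO for 17 genes in chromosome order around Fcgr2b, Fcgr4, Fcgr3 and Fcer1g, whose names are red. The DKO bars are 1.36 for Fcgr2b and 4.08 for Fcgr4, then -0.05 for the adjacent Fcgr3 and -1.54 for Fcrla on the other side.

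Other receptors for antibodies and relatives of the members differed in level, some bright and some dim. Of 14 genes, 8 were above the floor, and in DKO 0 of these were at least 2-fold higher than WT and 2 lower, Fcrla and Ms4a2, the beta chain of the IgE receptor, at -1.36. Both DKO signals were under the floor, and raised to it the differences were -0.95 and -0.27, so 0 were 2-fold apart. With background shares of 1.37% higher and 1.72% lower, nothing is read from these counts in 8 genes. The list's median was -0.17 log2. The neonatal receptor Fcgrt, which recycles IgG, differed by -0.50 in Fancd2KO, -0.64 in Foxo3aKO and -0.42 in DKO, and the cytosolic antibody receptor Trim21 by -0.52, -0.79 and -0.41. Fcer1a, the IgE-binding partner of Fcer1g on mast cells and basophils, lay under the floor on every array. Its signals were 4.13 log2 in Fancd2KO, 5.46 in Foxo3aKO, 4.27 in DKO and 4.39 in WT.

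Downstream signalling genes were bright, with small differences in DKO. All 28 measured genes of activating Fc receptor signalling were above the floor, and in DKO 0 were 2-fold apart from WT, with a median of -0.03 log2, which is also the median over all genes. With background shares of 1.37% higher and 1.72% lower, nothing particular to the list is read from a count of 0. Syk, the kinase recruited by the ITAM of Fcer1g, was at 7.80 log2 in Fancd2KO, 8.22 in Foxo3aKO, 7.95 in DKO and 8.09 in WT. The largest difference in DKO was that of Fgr, a Src family kinase, at 0.58. The kinase Bmx was the gene at least 2-fold higher in Foxo3aKO, at 1.07. Among 18 inhibitory genes above the floor 0 were 2-fold apart in DKO. Inpp5d, which acts below Fcgr2b, differed by 0.27, the SHP-1 gene Ptpn6 by 0.02 and the adaptor Dok1 by 0.77. The inhibitory receptor gene Lilrb4a was at least 2-fold higher in Foxo3aKO, at 1.15.

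Of the ITAM adaptors, Tyrobp, which codes for DAP12, was at 10.90 log2 in Fancd2KO, 11.79 in Foxo3aKO, 11.20 in DKO and 11.40 in WT. Its DKO minus WT difference was -0.20, where that of Fcer1g was 0.63. The list of adaptors and the receptors that pair with them had 14 genes above the floor, with a median of -0.25 in DKO. Of these, 2 were at least 2-fold higher in DKO and 2 lower, beside 1.37% and 1.72% of all genes. The higher ones were Sirpb1a at 2.67 and Sirpb1c at 2.53, members of a family with close copies, and in Foxo3aKO they differed by 1.32 and 1.96. Sirpb1c was under the floor in WT, and raised to it the differences were 1.40 in DKO and 0.83 in Foxo3aKO, the second below 2-fold. The lower ones were the C-type lectin gene Clec4d at -1.46 and the B cell receptor chain Cd79a at -1.39. Trem1, a DAP12-coupled receptor of neutrophils and monocytes, was higher in Foxo3aKO by 1.75 and differed by -0.21 in DKO. Among complement and other phagocytic receptors, 1 of 11 genes above the floor was at least 2-fold higher in DKO, beside 1.37% of all genes. This was Itgax, the CD11c integrin chain, at 2.37 log2, with signals of 4.62 in Fancd2KO, 5.28 in Foxo3aKO, 7.10 in DKO and 4.73 in WT. Itgax was above the floor in DKO only, so it entered the comparison through DKO alone and had to differ there. With dim signals raised to the floor its difference was 1.60. Cd14 was at least 2-fold higher in Fancd2KO and Foxo3aKO, by 1.04 and 1.23, and differed by 0.20 in DKO.

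Most markers of non-classical monocytes were higher in DKO than in WT, as were 4 of the members. The list was written with earlier results of these arrays known, so its direction is no independent evidence. All 18 markers were above the floor. In DKO 12 were at least 2-fold higher than WT and 0 lower, beside 1.37% and 1.72% of all genes. In Fancd2KO 1 was higher and 2 were lower, Adgre4 at -1.58 and Lst1 at -1.16, beside 1.68% and 1.35% of all genes. In Foxo3aKO 1 was higher and 1 lower, beside 1.81% and 1.30% of all genes. The lower one was Fabp4 at -1.06, a difference between signals under the floor. The mean level of the list was 6.96 log2 in Fancd2KO, 7.34 in Foxo3aKO, 8.98 in DKO and 7.29 in WT, and 2, 3, 0 and 4 markers were under the floor on these arrays. In DKO, Cd300e differed by 3.65, Ace by 2.73, Adgre4 by 2.35, Treml4 by 2.06 and the chemokine receptor gene Cx3cr1 by 1.29. Ace and Pparg, both among the 12, were above the floor in DKO only and had to differ there. With dim signals raised to the floor they differed by 2.31 and 2.32, and the count in DKO was again 12. The markers below WT in DKO were Lst1 at -0.69, Pglyrp1 at -0.41, Cd9 at -0.28 and Spn, which codes for CD43, at -0.26. Macrophage markers had a mean level of 6.13 log2 in Fancd2KO, 6.10 in Foxo3aKO, 7.00 in DKO and 6.27 in WT. Of 12 above the floor, 5 were at least 2-fold higher in DKO and 0 lower, beside 1.37% and 1.72% of all genes. These were Csf1r at 1.93, Adgre1 at 1.76, Cd68 at 1.27, Hmox1 at 1.24 and C1qb at 1.17. The macrophage markers below WT in DKO were Slc40a1 at -0.39 and Spic at -0.36. In Fancd2KO 0 macrophage markers were higher and 3 lower, beside 1.68% and 1.35% of all genes. In Foxo3aKO 0 were higher and 1 lower, beside 1.81% and 1.30%.

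In DKO, classical monocyte markers were mixed, and neutrophil markers were mostly below WT except for genes of primary granule proteins. Over all genes, 1.37% were at least 2-fold higher and 1.72% lower in DKO than in WT. The classical list had mean levels of 8.26 log2 in Fancd2KO, 9.23 in Foxo3aKO, 8.16 in DKO and 8.39 in WT. Of its 13 measured markers, 1 was at least 2-fold higher in DKO, Ly86 at 1.03, and 2 were lower, F13a1 at -1.21 and Fn1 at -1.40. In all, 5 of 13 were above WT in DKO, and the median was -0.33. In Foxo3aKO 6 of 13 were at least 2-fold higher and 0 lower, beside 1.81% and 1.30% of all genes. Neutrophil markers averaged 10.56 log2 in Fancd2KO, 11.29 in Foxo3aKO, 10.47 in DKO and 10.93 in WT. In DKO 1 of 15 was at least 2-fold higher, the elastase gene Elane at 1.01, and 3 were lower, Ly6g at -1.79, Retnlg at -1.24 and Cxcr2 at -1.08. Mpo and Prtn3, which like Elane code for primary granule proteins, differed by 0.36 and 0.22, and these 3 of 15 were above WT, with a median of -0.54. Foxo3aKO had the highest mean of both lists and DKO the lowest, while Fcgr3 was highest in Foxo3aKO and lowest in Fancd2KO. The part of any of these cell types in the Fc receptor differences was not tested.

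B cells, NK cells and mast cells also carry Fc receptors, and their part in the Fc receptor differences was not tested. Of the markers above the floor in their lists, 0 were at least 2-fold higher in DKO than in WT, beside 1.37% of all genes. With that share, and many of these markers under the floor in DKO, nothing is read from a count of 0. B and plasma cell markers averaged 5.76 log2 in Fancd2KO, 5.54 in Foxo3aKO, 5.41 in DKO and 6.01 in WT, and in DKO 10 of 15 were under the floor. In DKO 5 of 9 above the floor on some array were at least 2-fold lower, beside 1.72% of all genes. After dim signals were raised, 4 of the 9 were. The DKO array, highest for Fcrl5, had the lowest mean of the B and plasma cell list. Ms4a1, which codes for CD20, was at 5.21 log2 there, against 5.65 in WT. NK and T cell markers averaged 5.13 in Fancd2KO, 5.49 in Foxo3aKO, 5.08 in DKO and 5.23 in WT, with 13 of 17 under the floor in DKO. Of 9 above the floor on some array, 5 were above WT in DKO, with a median of 0.11, among them the granule gene Nkg7 at 9.57 log2 in DKO and 9.44 in WT and Cd3d at 7.40 in DKO and 6.40 in WT. Gzma, the one at least 2-fold lower, at -2.06, was under the floor in both. Mast cell, basophil and eosinophil markers averaged 5.97, 6.66, 5.90 and 7.01 on the same arrays. Of 11 above the floor, 7 were at least 2-fold lower than WT in DKO, 5 in Fancd2KO and 3 in Foxo3aKO. Over all genes 1.72%, 1.35% and 1.30% were lower in these comparisons. Raising dim signals to the floor left 6 of the 7 in DKO. The eosinophil gene Epx differed by -2.71 in Fancd2KO, -1.81 in Foxo3aKO and -3.27 in DKO. The mast cell genes Cma1, Mcpt4 and Tpsb2 were under the floor on every array. In the same list Cpa3 and Hdc were above it on every array. Cpa3 was at 6.36 log2 in Fancd2KO, 7.76 in Foxo3aKO, 7.21 in DKO and 7.49 in WT. Hdc was at 8.55, 9.52, 8.26 and 8.90. Dendritic cell markers averaged 5.79 in Fancd2KO, 6.10 in Foxo3aKO, 6.22 in DKO and 5.95 in WT. Of 10 above the floor, 2 were at least 2-fold higher than WT in DKO and 0 lower, beside 1.37% and 1.72% of all genes. They were Itgax at 2.37, above the floor in DKO only, and H2-Eb1 at 1.02. Stem cell genes averaged 8.43, 8.18, 8.38 and 8.38. Of these 16 genes, 1 was at least 2-fold higher than WT in DKO, Vwf at 1.02, and 1 lower, Tek at -1.25.

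**Figure D5:**
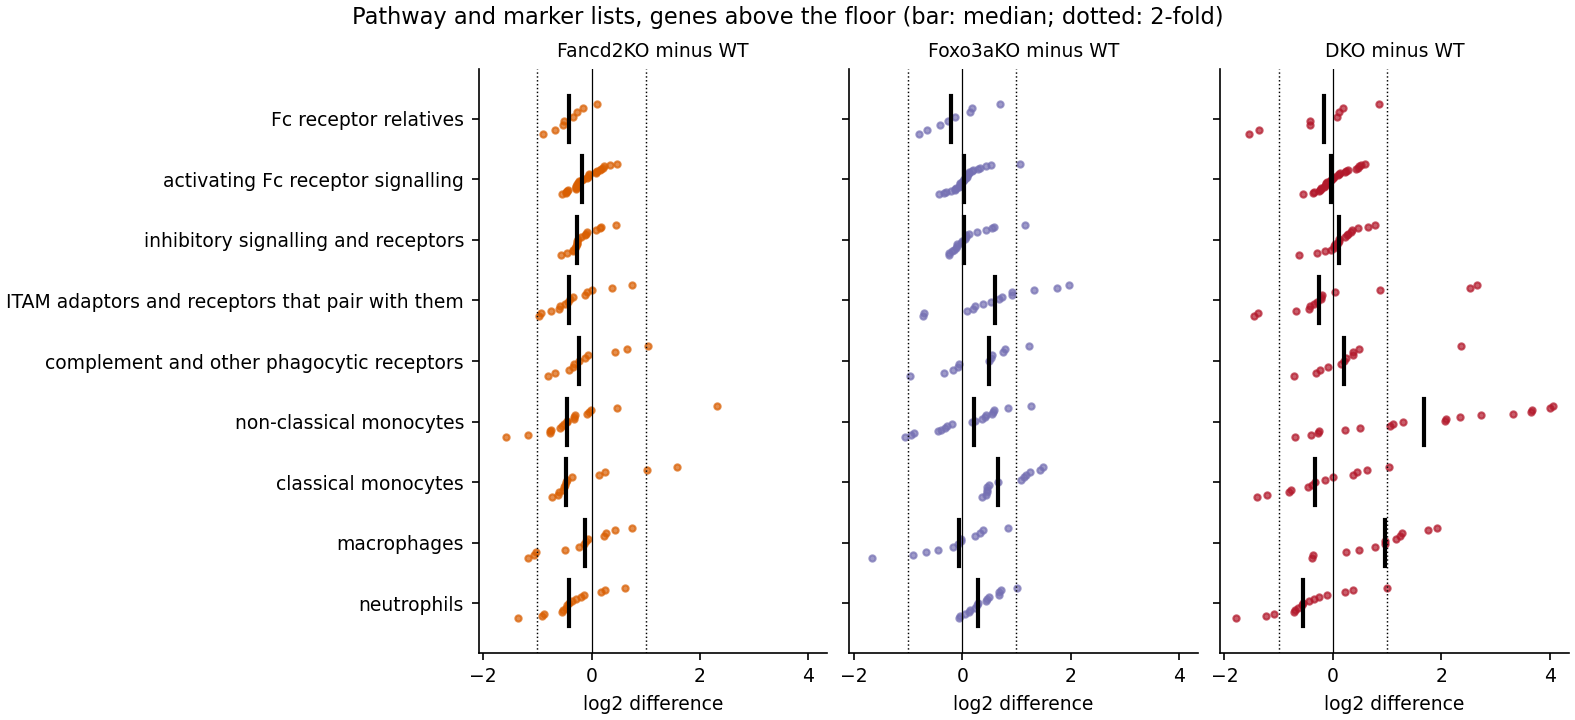
Log2 differences from WT (horizontal axes) in Fancd2KO, Foxo3aKO and DKO for genes above the floor in 5 pathway lists and 4 marker lists (rows), with 1 point per gene, a bar at each median and dotted lines at 2-fold. In DKO the non-classical monocyte row has a median of 1.67 log2 and the macrophage row 0.96, while the activating signalling row stays at -0.03.

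For each member at least 2-fold from WT, the 5 genes with the most similar differences from WT over the 3 knockout arrays were found by root mean square distance. The arrays of 3 knockouts are few, so the likeness is loose. Nearest to Fcgr4 were the C-type lectin genes Clec4b1 (0.37 log2), Clec4a3 (0.41) and Clec4a1 (0.41), Cd300e (0.49) and Bcl2a1a (0.56). Nearest to Fcrl5 were the nuclear receptor gene Pparg (0.17), Ace (0.25), Tph1 (0.47), Ms4a4a (0.49) and the acid phosphatase gene Acp5 (0.51). Fcgr1 was closest to the integrin gene Itgad (0.14), Smpdl3b (0.18), Adamdec1 (0.23), Tmem26 (0.24) and the cytokine receptor gene Il13ra1 (0.28). Fcgr2b was closest to the lysosomal gene Cd68 (0.11), Tmem106a (0.19), P2ry6 (0.20), Prss48 (0.21) and Lrp1 (0.25). No gene stood among the nearest of 2 members. Of these 20 genes, 7 were under the floor on every array but DKO, like Fcgr1 and Fcrl5. With dim signals raised to the floor, DKO minus WT was 2.32 for Pparg, 2.31 for Ace, 1.42 for Adamdec1 and 1.25 for Ms4a4a, and below 2-fold for Clec4b1 at 0.77, Itgad at 0.69 and Tph1 at 0.55.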

How the data were processed

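RNA of 4 sorted marrow samples, 1 per genotype, was measured on Affymetrix arrays. The deposited table holds log2 expression values that, per the submitters' processing notes, the authors made in Affymetrix Expression Console. Version, summarisation, normalisation and build are not given in the sources used here. Precision is limited by the number of arrays. Platform annotation named the probe sets: 23521 had 1 symbol, and the 1814 with several were not used. The probe set with the highest mean stood for a gene. Log2 values were subtracted between single arrays, with no test, and genes at least 2-fold apart were counted among those above the floor. Counting was run on simulated arrays with planted differences well past 2-fold and little noise. That run checks the counting code and says nothing about the error of these arrays.

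Alternatives were quantile normalisation and cyclic loess (limma 3.58.1, R 4.3.3), median centring, the mean of all probe sets, dim signals raised to the floor, thresholds of 1.5-fold and 3-fold, and no floor. The members, the 5 pathway lists and the 9 marker lists were chosen with earlier results of these data known. The rule for named genes took the members, list genes past 2-fold (only part of the marker lists is given) or largest in size, the 5 nearest patterns per member without predicted genes, clones and pseudogenes, 3 neighbours per side, Fancd2 and Foxo3. Other list genes are named for their roles. Python 3.11.15 was used.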

Additional observations from a re-analysis of the deposited data

Results flagged for a closer look

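With 1 array a genotype, the same gene loss on 2 backgrounds can be set side by side, and for 3 members it went opposite ways. None of these differences was tested. Fancd2 loss on the Foxo3a knockout background (DKO minus Foxo3aKO) differed by 3.19 log2 for Fcgr4, 3.51 for Fcrl5 and 0.24 for Fcer1g. On the wild-type background (Fancd2KO minus WT) the same genes differed by -0.19, -0.22 and -0.81. Foxo3a loss differed by 3.36 for Fcrl5 on the Fancd2 knockout background (DKO minus Fancd2KO) and by -0.36 on the wild-type one (Foxo3aKO minus WT). Opposite signs are common in these arrays: 51.0% of the 12041 genes had them for Fancd2 loss and 49.1% for Foxo3a loss. The differences on the wild-type background were below 2-fold, and those of Fcrl5 were between signals under the floor. Fcrl5 was above the floor in DKO only, so its differences on the knockout backgrounds had to be positive. With dim signals raised to the floor, each of these was 1.94 log2.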

How the results depend on the processing

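Each of the 6 differences of the 6 members was recomputed under 5 alternatives, which gave 180 values. Of these 0 changed sign among differences past 2-fold, and 174 moved by less than the SD of probe set disagreement. The other 6 came from raising dim signals to the floor: Fcgr1 at 1.07 in DKO minus WT and DKO minus Fancd2KO, and Fcrl5 at 1.94 in these, in DKO minus Foxo3aKO and against the additive expectation. Part of this stability was fixed in advance. Each member had 1 probe set, so the mean of all probe sets could not move any of its 36 values. Raising dim signals could not move Fcgr3, Fcgr4, Fcgr2b or Fcer1g, which were above the floor on all 4 arrays. The deposited arrays were already alike, with medians of 5.27 to 5.34 log2 and sorted values at most 0.089 log2 from their mean. Median centring and quantile normalisation therefore could not move any difference by as much as that SD. The count of members at least 2-fold higher was the same under the 5 alternatives in all 6 comparisons. It followed the threshold: at 1.5-fold 2 members were higher in Foxo3aKO minus WT, against 0 at 2-fold. At 3-fold, 3 were higher in DKO minus Fancd2KO, against 5, and 2 against the additive expectation, against 4. The Fcgr3 difference for DKO minus WT ran from -0.08 to 0.01, so its sign is not settled. No paired analysis was possible because each genotype has 1 array, and for the same reason no array could be left out. Background values per probe were not part of the table used here, so how far dim signals lie above background is unknown.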
